A study of Rattus norvegicus with 12 samples.

Results

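Immediate-early genes are transcribed within minutes of synaptic input, growth factors or stress, from transcription factors that are already present in the cell. In cortical neurons, calcium entry and the MAP kinase cascade act through CREB bound to cyclic AMP response elements (CRE) and through serum response factor bound to CArG boxes. Their transcripts are short-lived, so their level in cortex is widely used as a trace of recent neuronal activity, and it also responds to handling, anaesthesia and ischemia. A set of 10 such genes was followed here by fixed gene identifiers, and all 10 were found among the 43206 genes (transcript values summed per gene) of the deposited files. They were Fos (ENSRNOG00000008015), Fosb (ENSRNOG00000046667), Junb (ENSRNOG00000042838), Jun (ENSRNOG00000026293), Egr1 (ENSRNOG00000019422), Egr2 (ENSRNOG00000000640), Arc (ENSRNOG00000043465), Npas4 (ENSRNOG00000020009), Nr4a1 (ENSRNOG00000007607) and Dusp1 (ENSRNOG00000003977). The symbols were given with the list of identifiers, because the files themselves pair no identifier with a symbol.

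RNA came from prefrontal cortex of rats of strain SD at postnatal day 28, in 12 libraries. A normal group (4 libraries, numbered 8, 10, 11 and 13), a group with hypoxic-ischemic brain damage, called the HIBD model group (4 libraries, 2, 8, 16 and 18), and an acupuncture group (4 libraries, 5, 22, 35 and 55) were compared. For the acupuncture group the labels give the treatment alone, and only the series title ties it to rats with hypoxic-ischemic damage. How the injury was made, when the rats were treated, how long after the last treatment tissue was taken, and whether 1 library is 1 animal were not given in the sources used here, so the p-values cover only how these libraries differ, which may be technical. Tissue markers were not checked against the label, since no symbols are paired with the other identifiers. In bulk tissue, fewer cells of a type and less RNA per cell cannot be told apart.

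Start-site windows were available for 7 of the 10 genes, as 250 bases before to 50 after the start in RefSeq (rat build GRCr8), and not for Fos, Jun and Arc. Stretches with matches are shown for 5 genes, the same 5 in which a short CRE (defined below) was found. Whether these motifs bear on how the genes varied between libraries was not tested. The motifs searched on both strands were the CRE (TGACGTCA), the short CRE (TGACG, which is part of the full CRE), the AP-1 site (TGANTCA), the EGR site (GCGGGGGCG or GCGTGGGCG), the NR4A site (AAAGGTCA), the TATA box (TATAAA) and the CArG box. In the lines that follow, capitals mark the matches, and positions count from -1, the base before the start. The sequences read 5′ to 3′ on the strand of the gene.
Egr1, chr18:26736918-26737077, plus strand, -160 to -1: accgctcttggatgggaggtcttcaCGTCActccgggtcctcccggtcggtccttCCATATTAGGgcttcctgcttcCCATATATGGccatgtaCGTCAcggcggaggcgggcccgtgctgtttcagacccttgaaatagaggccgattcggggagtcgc
Junb, chr19:40080966-40081125, plus strand, -160 to -1: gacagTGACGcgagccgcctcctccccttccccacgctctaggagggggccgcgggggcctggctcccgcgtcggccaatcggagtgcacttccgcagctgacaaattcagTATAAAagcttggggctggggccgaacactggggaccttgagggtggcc
Dusp1, chr10:17184673-17184832, plus strand, -180 to -21: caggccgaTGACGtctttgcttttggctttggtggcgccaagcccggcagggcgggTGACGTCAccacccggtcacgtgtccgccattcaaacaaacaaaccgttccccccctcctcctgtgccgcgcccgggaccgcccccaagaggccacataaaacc
Egr2, chr20:21054500-21054529, minus strand, -88 to -59: tcagtCCATATATGGgcagcgaCGTCAcgg
Nr4a1, chr7:134260061-134260090, plus strand, -77 to -48: gtggCGCCCCCGCccctctccatgCGTCAc

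Egr1 carried 2 CArG boxes, at -105 to -96 and -83 to -74, with a short CRE at -135 and another at -66. Egr2 carried a CArG box at -83 to -74 and a short CRE at -66, the same positions as the second pair in Egr1. A CArG box occurred in 1.64% of all 33469 windows. Dusp1 was the only one of the 7 with a full CRE, at -124 to -117, which 1.83% of all windows held. A short CRE was found in 5 of the 7 (Junb, Egr1, Egr2, Nr4a1 and Dusp1), against 21.2% of all windows. Nr4a1 held 4 short CREs and 1 EGR site, the latter found in 3.20% of all windows. Junb held TATAAA on the strand of the gene at -49 to -44, and Fosb held it on the opposite strand at -180 to -175. On either strand it was found in 14.2% of all windows. None of the 7 held the AP-1 or NR4A letters in this window, which 7.33% and 1.43% of all windows did. Npas4 held none of the motifs. These matches describe letters and not occupied sites.

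The files hold estimated counts with totals of 714904584 to 1090316733 per library, and what 1 unit is worth in reads is unknown, so no counting interval is given. Levels per length are given as FPKM (fragments per kilobase of transcript, scaled to library size) as deposited, a unit read from the values because the files do not name it. Fold changes come from edgeR's quasi-likelihood test on the estimated counts of all genes, with p-values adjusted over 27885 genes by the Benjamini-Hochberg method and a threshold of 0.05. All 10 genes passed the filter on low values. As a mean over the 12 libraries, Egr1 was the most abundant at 83.1 FPKM, followed by Arc at 67.9, Nr4a1 at 38.1, Junb at 33.6, Dusp1 at 24.9, Jun at 24.5, Fos at 15.2, Egr2 at 9.16, Npas4 at 7.13 and Fosb at 7.09 FPKM. Neighbours in this order such as Dusp1 and Jun, or Npas4 and Fosb, differed by far less than their spread between libraries.

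Fos encodes a subunit of the AP-1 transcription factor and is the most used activity marker. It stood at 9.38, 34.0, 24.6 and 24.9 FPKM in normal libraries 8, 10, 11 and 13, at 16.7, 5.69, 9.88 and 18.1 FPKM in HIBD model libraries 2, 8, 16 and 18, and at 14.6, 11.4, 10.0 and 3.59 FPKM in acupuncture libraries 5, 22, 35 and 55. Normal libraries 10, 11 and 13 lay above every HIBD model and acupuncture library, while normal library 8 lay among them. This order was read from the values, and its share over all genes was not counted, here or for the genes below. The group means were 23.2 ± 10.2, 12.6 ± 5.84 and 9.90 ± 4.63 FPKM (SD, n = 4 each).

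Fosb, a partner of the Jun proteins whose truncated form accumulates with repeated stimulation, stood at 8.13, 14.1, 16.4 and 9.60 FPKM in the normal libraries in the same order. It stood at 6.81, 2.12, 2.26 and 6.996 FPKM in the HIBD model libraries and at 5.90, 6.86, 2.46 and 3.40 FPKM in the acupuncture libraries. It was the only 1 of the 10 genes in which all 4 normal libraries lay above all HIBD model and all acupuncture libraries, also on the CPM scale (estimated counts scaled to the TMM-adjusted library total). On that scale, 5.39% of all genes tested had all 4 HIBD model libraries below all normal ones, and 8.6% had all acupuncture libraries below all normal ones, so 1 gene in 10 is near the background. None of the 10 had all 4 libraries of either group above all normal ones, as 6.13% and 9% of all genes did. The means were 12.1 ± 3.86, 4.55 ± 2.72 and 4.65 ± 2.07 FPKM (SD, n = 4).

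Junb, another AP-1 subunit, stood at 22.3, 71.2, 55.6 and 47.1 FPKM in normal, at 38.7, 17.9, 24.7 and 34.9 FPKM in HIBD model and at 23.7, 25.0, 28.1 and 14.5 FPKM in acupuncture libraries. As for Fos, normal libraries 10, 11 and 13 lay above all others and normal library 8 did not. Jun, the AP-1 subunit with the steadiest expression of the list, stood at 21.4, 26.6, 30.8 and 25.1 FPKM in normal, at 23.8, 22.3, 20.5 and 23.3 FPKM in HIBD model and at 24.0, 25.1, 22.9 and 28.7 FPKM in acupuncture libraries. Its 12 levels spanned 1.504-fold from lowest to highest, against 9.47-fold for Fos, 7.76-fold for Fosb and 4.92-fold for Junb.

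The zinc-finger factors Egr1 and Egr2 bind the same kind of GC-rich site. Egr1, which is abundant in unstimulated cortex, stood at 66.8, 115.0, 129.2 and 86.2 FPKM in normal, at 62.2, 54.1, 81.8 and 69.96 FPKM in HIBD model and at 87.5, 99.4, 79.3 and 66.0 FPKM in acupuncture libraries. Egr2 stood at 5.67, 19.1, 22.1 and 12.03 FPKM in normal, at 5.85, 2.81, 6.36 and 6.36 FPKM in HIBD model and at 9.82, 8.66, 6.24 and 4.95 FPKM in acupuncture libraries. For Egr2 the normal libraries 10, 11 and 13 again lay above every other library, and normal library 8 lay below 3 of the 4 HIBD model libraries.

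Nr4a1 encodes an orphan nuclear receptor and Npas4 a neuronal transcription factor that responds to calcium entry. Nr4a1 stood at 30.5, 71.7, 63.4 and 48.6 FPKM in normal, at 39.9, 17.2, 29.6 and 43.2 FPKM in HIBD model and at 28.5, 35.9, 31.1 and 18.0 FPKM in acupuncture libraries. Npas4 stood at 2.97, 16.3, 9.19 and 8.19 FPKM in normal, at 8.14, 3.58, 5.46 and 7.18 FPKM in HIBD model and at 5.96, 7.81, 8.53 and 2.21 FPKM in acupuncture libraries. The normal group held both the highest and the second lowest level of Npas4, a 5.49-fold range within 1 group.

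Arc, a postsynaptic protein that promotes removal of AMPA receptors, and Dusp1, a phosphatase that inactivates MAP kinases and so limits the same cascade, are effectors rather than transcription factors. Arc stood at 47.3, 117.6, 108.5 and 64.9 FPKM in normal, at 66.2, 42.3, 49.5 and 59.5 FPKM in HIBD model and at 55.7, 88.0, 63.9 and 52.1 FPKM in acupuncture libraries. Dusp1 stood at 22.9, 43.6, 39.3 and 26.0 FPKM in normal, at 29.6, 15.2, 17.9 and 19.6 FPKM in HIBD model and at 16.9, 29.6, 19.7 and 18.6 FPKM in acupuncture libraries. For both genes, normal libraries 10 and 11 were the highest of the 12, and the other libraries overlapped between groups except that 3 of 4 HIBD model and 3 of 4 acupuncture libraries lay below all normal libraries for Dusp1.

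**Figure D1:**
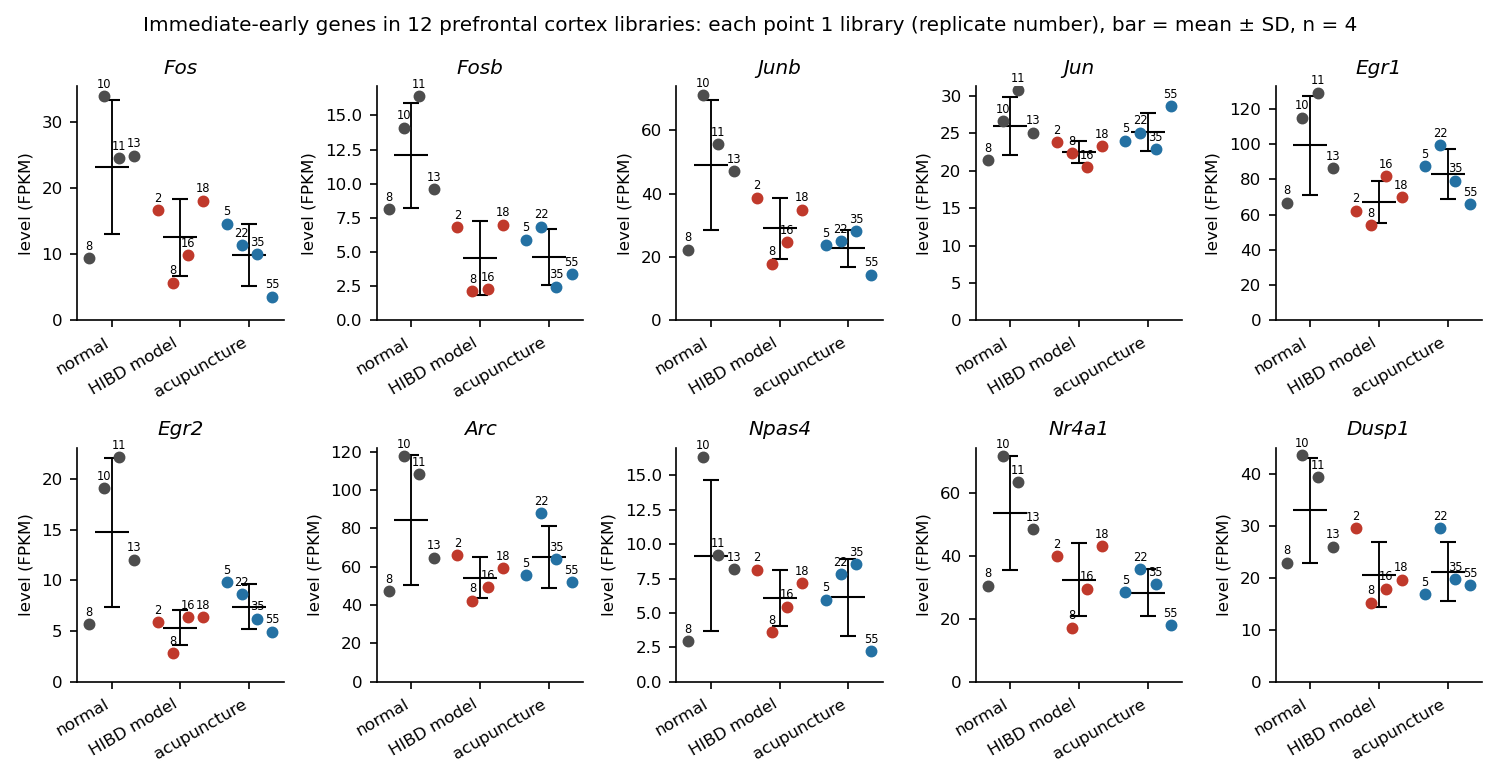
Level of each of the 10 genes in FPKM (vertical axis, from 0) in each library of the 3 groups (horizontal axis), with points as libraries and bars as mean ± SD (n = 4). Normal libraries 10 and 11 lie among the 3 highest in all panels and normal library 8 is the lowest of its group, and only the Fosb panel shows the normal group clear of both others.

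The comparison of HIBD model with normal libraries asks how the injury model differs from normal cortex. All 10 genes had a lower fitted level in the HIBD model group, with a median log2 fold change of -0.62, while 49.2% of all genes tested had a negative log2 fold change and the median over all genes was 0.01. Most of the 10 moved together between libraries, as given below, so their signs are not separate observations. The same limit holds for the counts of the 10 genes in the paragraphs that follow. Egr2 averaged 14.7 ± 7.37 FPKM in normal and 5.34 ± 1.71 FPKM in HIBD model libraries, a log2 fold change of -1.37 (edgeR: SE 0.42, adjusted p = 0.112). Fosb had a log2 fold change of -1.37 as well (edgeR: SE 0.45, adjusted p = 0.126). The next were Fos at -0.82 (edgeR: SE 0.49, adjusted p = 0.364), Junb at -0.68 (edgeR: SE 0.34, adjusted p = 0.269) and Nr4a1 at -0.64 (edgeR: SE 0.32, adjusted p = 0.274). Dusp1 had -0.60 (edgeR: SE 0.27, adjusted p = 0.212), Arc -0.55 (edgeR: SE 0.28, adjusted p = 0.285), Npas4 -0.51 (edgeR: SE 0.51, adjusted p = 0.613), Egr1 -0.46 (edgeR: SE 0.23, adjusted p = 0.279) and Jun -0.20 (edgeR: SE 0.12, adjusted p = 0.334). When only transcripts named by Ensembl were summed, Jun had -0.0072 (edgeR: SE 0.13, adjusted p = 0.99).

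None of the 10 passed in edgeR, where 0.0968% of all genes did. At an unadjusted p under 0.05, 3 of the 10 (Fosb, Egr2 and Dusp1) were lower, against 8.83% of all genes tested, and none was higher, against 13.6%. DESeq2 called 2 of the 10, Egr2 (DESeq2 adjusted p = 0.0178) and Fosb (DESeq2 adjusted p = 0.0317), but it also called 13.5% of all genes. Limma-voom called 0 of the 10, and 5 of all 27885 genes. The unadjusted 95% intervals of the log2 fold change were wide, -2.30 to -0.44 for Egr2, -2.37 to -0.37 for Fosb, -1.90 to 0.26 for Fos and -0.46 to 0.05 for Jun. Normal library 8 carried low values of most of these genes, and without it 9 of the 10 were at an unadjusted p under 0.05, against 15.2% of all genes in either direction in that fit. Log2 fold changes were then -1.63 for Egr2, -0.90 for Junb and -0.79 for Npas4, and none passed over all genes (smallest edgeR adjusted p = 0.221). Without normal library 10, which was high, Fos had a log2 fold change of -0.56, Junb of -0.43, Dusp1 of -0.42, Arc of -0.34 and Npas4 of -0.059, while Fosb had -1.26 and Egr2 -1.21. These last 2 of the 10 were at an unadjusted p under 0.05, against 25.7% of all genes in either direction. In that fit edgeR called 3032 genes in all, none of them among the 10. Without normal library 11, Egr1 had -0.30.

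Acupuncture libraries were next set against normal ones, which asks how treated rats differ from normal cortex. It shares the normal libraries with the comparison above, so both sets of values move together with those libraries. Of the 10 genes, 9 had a lower fitted level, with a median log2 fold change of -0.62, while 48.7% of all genes tested had a negative value and their median was 0.02. Fosb had a log2 fold change of -1.22 (edgeR: SE 0.45, adjusted p = 0.14), Fos of -1.08 (edgeR: SE 0.49, adjusted p = 0.207) and Junb of -0.96 (edgeR: SE 0.34, adjusted p = 0.131). Egr2 had -0.85 (edgeR: SE 0.42, adjusted p = 0.239), Nr4a1 -0.74 (edgeR: SE 0.32, adjusted p = 0.187) and Dusp1 -0.50 (edgeR: SE 0.27, adjusted p = 0.275). Npas4 at -0.43 (SE 0.51), Arc at -0.24 (SE 0.28) and Egr1 at -0.12 (SE 0.23) had smaller values, with edgeR adjusted p from 0.641 to 0.798. Jun had a positive value of 0.21 (edgeR: SE 0.12, adjusted p = 0.295), which was -0.037 when fitted on log2(FPKM + 1) by limma-trend.

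None of the 10 passed in edgeR, where 0.0825% of all genes did. At an unadjusted p under 0.05, 3 of the 10 (Fosb, Junb and Nr4a1) were lower, against 10.4% of all genes, and none was higher, against 14.1%. DESeq2 called Junb alone (DESeq2 adjusted p = 0.0477) and 15.5% of all genes, and limma-voom called 0 of the 10 and 9 of all 27885 genes. Without normal library 8, the log2 fold changes were -1.34 for Fos, -1.20 for Junb and -1.12 for Egr2, and 6 of the 10 were at an unadjusted p under 0.05, against 17.7% of all genes in either direction in that fit, again with none past the threshold. Without normal library 10 they were -0.83 for Fos and -0.72 for Junb, Arc had -0.037 and Npas4 0.0088, and edgeR called 3094 genes in all, none of them among the 10. In that fit 1 of the 10, Fosb, was at an unadjusted p under 0.05, against 27.4% of all genes in either direction.

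Between acupuncture and HIBD model libraries, the question is how treated and untreated injured cortex differ. Here the log2 fold changes were small and of both signs, 7 positive and 3 negative, with a median of 0.13 against 0.00 over all genes tested, of which 50.3% were negative. Egr2 averaged 7.41 ± 2.22 FPKM in acupuncture and 5.34 ± 1.71 FPKM in HIBD model libraries, a log2 fold change of 0.53 (edgeR: SE 0.41, adjusted p = 0.9998). Egr1 had 0.34 (SE 0.23), Arc 0.31 (SE 0.28), Fosb 0.15 (SE 0.45), Dusp1 0.10 (SE 0.26) and Npas4 0.08 (SE 0.51), with the same adjusted p. Fos had -0.25 (SE 0.49), Junb -0.28 (SE 0.34) and Nr4a1 -0.10 (SE 0.32). The unadjusted 95% interval ran from -1.33 to 0.82 for Fos, from -0.39 to 1.44 for Egr2 and from -0.17 to 0.86 for Egr1. These intervals include 0.

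Jun was the 1 gene of the 10 at an unadjusted p under 0.05 here, with a log2 fold change of 0.41 (edgeR: SE 0.12, adjusted p = 0.907), and 1.94% of all genes were higher at that p. At that p no gene of the 10 was lower, against 3.37% of all genes. On the CPM scale all 4 acupuncture libraries (7.66 to 9.12 CPM) lay above all 4 HIBD model libraries (5.68 to 6.71 CPM), as in 1.26% of all genes. The reverse, all 4 below, held for no gene of the 10 and for 1.01% of all genes. On the FPKM scale the groups overlapped, with means of 25.2 ± 2.49 and 22.5 ± 1.47 FPKM (SD, n = 4). The CPM value of Jun includes 8 rows named by the transcript assembler, which held 45.4% of its estimated counts in acupuncture, 34.3% in HIBD model and 39.3% in normal libraries. With Ensembl transcripts alone the log2 fold change of Jun was 0.12 (edgeR: SE 0.13, adjusted p = 0.897). None of the 10 genes passed in edgeR, DESeq2 or limma-voom in this comparison, where edgeR called 0% and DESeq2 0.631% of all genes and limma-voom called 0 of 27885.

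**Figure D2:**
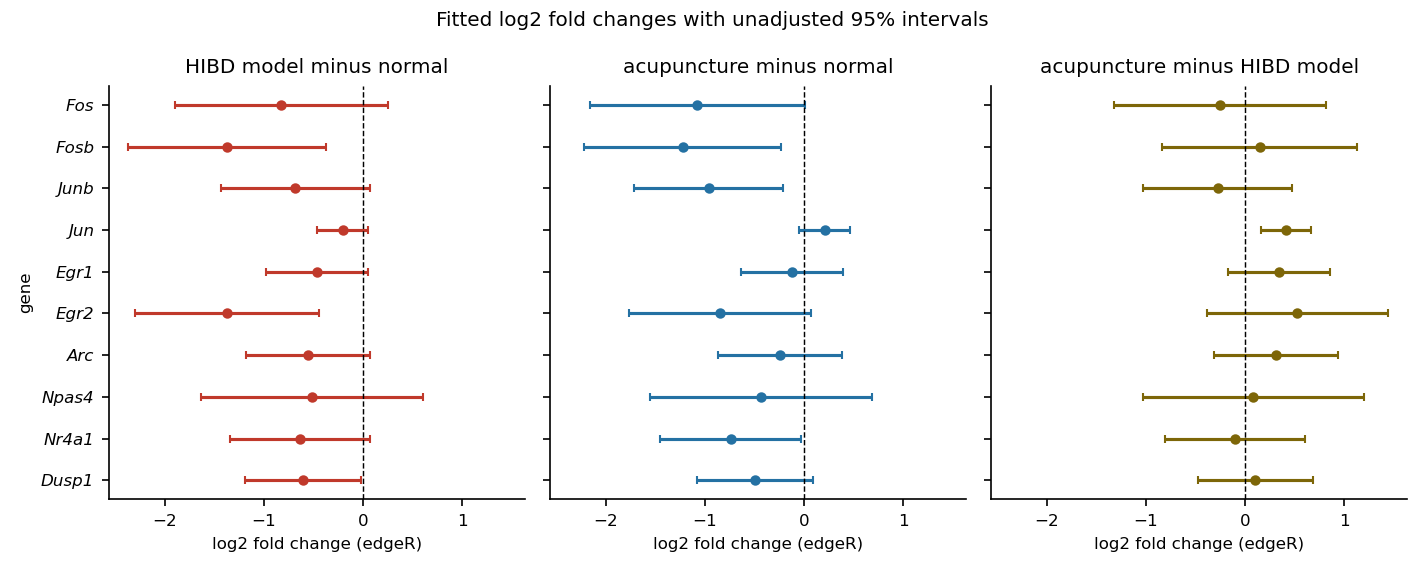
Fitted log2 fold changes (horizontal axis, edgeR) of the 10 genes (vertical axis) in 3 comparisons, with unadjusted 95% intervals as bars and 0 as a dashed line. All 10 points lie left of 0 for HIBD model minus normal, 9 of 10 for acupuncture minus normal, and the points of acupuncture minus HIBD model lie on both sides.

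Tested for any difference over all 3 groups at once, the smallest adjusted p values were those of Jun (edgeR adjusted p = 0.175), Fosb (edgeR adjusted p = 0.178) and Egr2 (edgeR adjusted p = 0.186). With Ensembl transcripts alone Jun had an edgeR adjusted p of 0.806 in this test. None of the 10 passed, against 0.0251% of all genes, and 4 of 10 were at an unadjusted p under 0.05 (Fosb, Junb, Jun and Egr2) against 20.6% of all genes. DESeq2 called Fosb, Egr2 and Jun (DESeq2 adjusted p from 0.0345 to 0.0436) and 12.7% of all genes, and limma-voom called none of the 10 and 8 of all 27885 genes.

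Libraries of the same group differed, often in the same direction for several genes. In FPKM, normal libraries 10 and 11 each held a level among the 3 highest of 12 for all 10 genes, and normal library 13 for 5 genes. HIBD model library 8 held a level among the 3 lowest for all 10 genes. Normal library 8 and acupuncture library 55 did so for 6 genes each. Such ranks were not counted over all genes. On the CPM scale Jun stood at 7.76 and 8.18 in normal libraries 10 and 11, below acupuncture libraries 5, 22 and 55 (8.52, 9.12 and 8.70). Taken as the median over the 10 genes of log2 FPKM minus the gene's own mean, the libraries stood at -0.36, 1.13, 0.80 and 0.43 in the normal group (8, 10, 11 and 13). They stood at 0.21, -0.78, -0.30 and 0.06 in the HIBD model group (2, 8, 16 and 18) and at -0.05, 0.20, -0.14 and -0.71 in the acupuncture group (5, 22, 35 and 55). So each group held libraries on both sides of 0, and 3 of the 4 normal libraries lay above it.

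**Figure D3:**
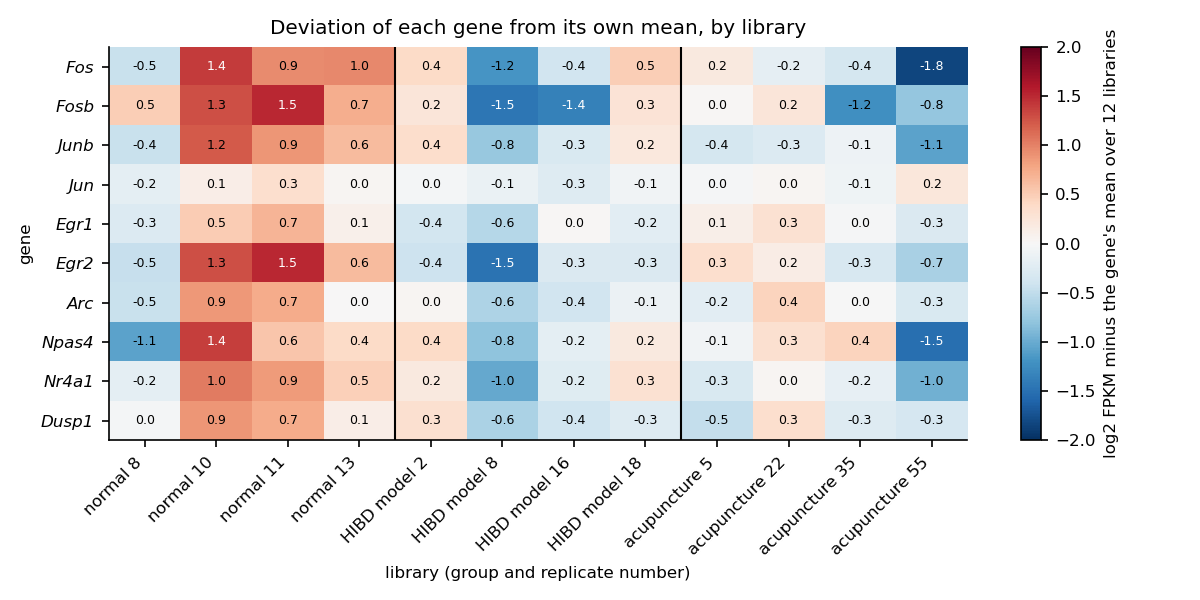
Deviation of log2 FPKM from the gene's own mean over 12 libraries (colour and printed value), with genes in rows and libraries in columns, grouped by vertical lines. Columns are mostly of 1 colour, as in normal library 10 (0.13 to 1.41) and HIBD model library 8 (-1.47 to -0.13), and the Jun row is pale throughout.

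Within groups, the SD of log2 CPM was 0.83 for Npas4, 0.80 for Fos, 0.69 for Fosb, 0.66 for Egr2, 0.54 for Junb, 0.51 for Nr4a1, 0.43 for Arc, 0.39 for Dusp1 and 0.35 for Egr1. These lay between the 72.6th and the 92.0th percentile of 15590 genes tested with a mean of at least 1 FPKM, whose median SD was 0.22. Jun had an SD of 0.16, at the 31.8th percentile. The 4 genes with the lowest levels had the 4 largest SDs, but Junb and Nr4a1, at the 86.9th and 88.8th percentile of level, still lay at the 84.6th and 83.2nd percentile of SD.

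Whether the genes moved together between libraries was read from the correlation of log2(FPKM + 1) with Fos over the 12 libraries, in a family of 11 relations (the other 9 genes, and 2 measures of the libraries). All p-values are two-sided permutation p-values from 100000 resamples, adjusted over the 11 relations. Junb had a Pearson r of 0.95 (permutation p = 2e-05, adjusted 0.00011) and a Spearman rho of 0.94 (permutation p = 1e-05, the smallest that the resamples can give, adjusted 0.00011). Nr4a1 had r = 0.95 (permutation p = 2e-05, adjusted 0.00011) and rho = 0.91 (permutation p = 0.00014, adjusted 0.00077). Npas4 had r = 0.87 (permutation p = 0.00021, adjusted 0.00077) and rho = 0.84 (permutation p = 0.00098, adjusted 0.00359). Among 15657 genes ordered by r with Fos (those with a mean of at least 1 FPKM), Junb was at rank 1, Nr4a1 at rank 2 and Npas4 at rank 7.

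Egr2 had r = 0.82 (permutation p = 0.00129, adjusted 0.00355) and rho = 0.83 (permutation p = 0.00139, adjusted 0.00382), at rank 39. Fosb had r = 0.80 (permutation p = 0.00191, adjusted 0.0042) and rho = 0.76 (permutation p = 0.00629, adjusted 0.0115), at rank 63. Arc had r = 0.72 (permutation p = 0.00743, adjusted 0.0105) and rho = 0.80 (permutation p = 0.00246, adjusted 0.00541), at rank 241. Dusp1 had r = 0.72 (permutation p = 0.00764, adjusted 0.0105) and rho = 0.66 (permutation p = 0.0222, adjusted 0.0306), at rank 248. Egr1 had r = 0.67 (permutation p = 0.0176, adjusted 0.0215) and rho = 0.64 (permutation p = 0.0275, adjusted 0.0336), at rank 577. Jun had r = 0.26 (permutation p = 0.413, adjusted 0.455) and rho = 0.48 (permutation p = 0.116, adjusted 0.128), at rank 7910.

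Of the 9 relations, 8 passed, and the median r of the 9 was 0.80 against 0.27 over all 15657 genes. Without the 2 libraries farthest from the median Fos level, normal 10 and acupuncture 55, r was 0.92 for Junb, 0.92 for Nr4a1, 0.82 for Egr2, 0.80 for Fosb, 0.71 for Npas4 and 0.70 for Jun, and these 6 passed. Then Arc (r = 0.66), Dusp1 (r = 0.65) and Egr1 (r = 0.58) missed the threshold, with 10 libraries in place of 12. Without normal library 10 alone, 5 of the 9 passed. Jun passed without acupuncture library 55 (r = 0.72, permutation p adjusted 0.0136), the library in which Fos was lowest and Jun second highest. With each library taken as its deviation from its group mean, r was 0.93 for Junb, 0.93 for Nr4a1, 0.91 for Npas4, 0.84 for Egr2, 0.72 for Arc, 0.71 for Fosb, 0.69 for Egr1, 0.58 for Dusp1 and 0.19 for Jun, and 7 of the 9 passed (not Dusp1 or Jun).

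**Figure D4:**
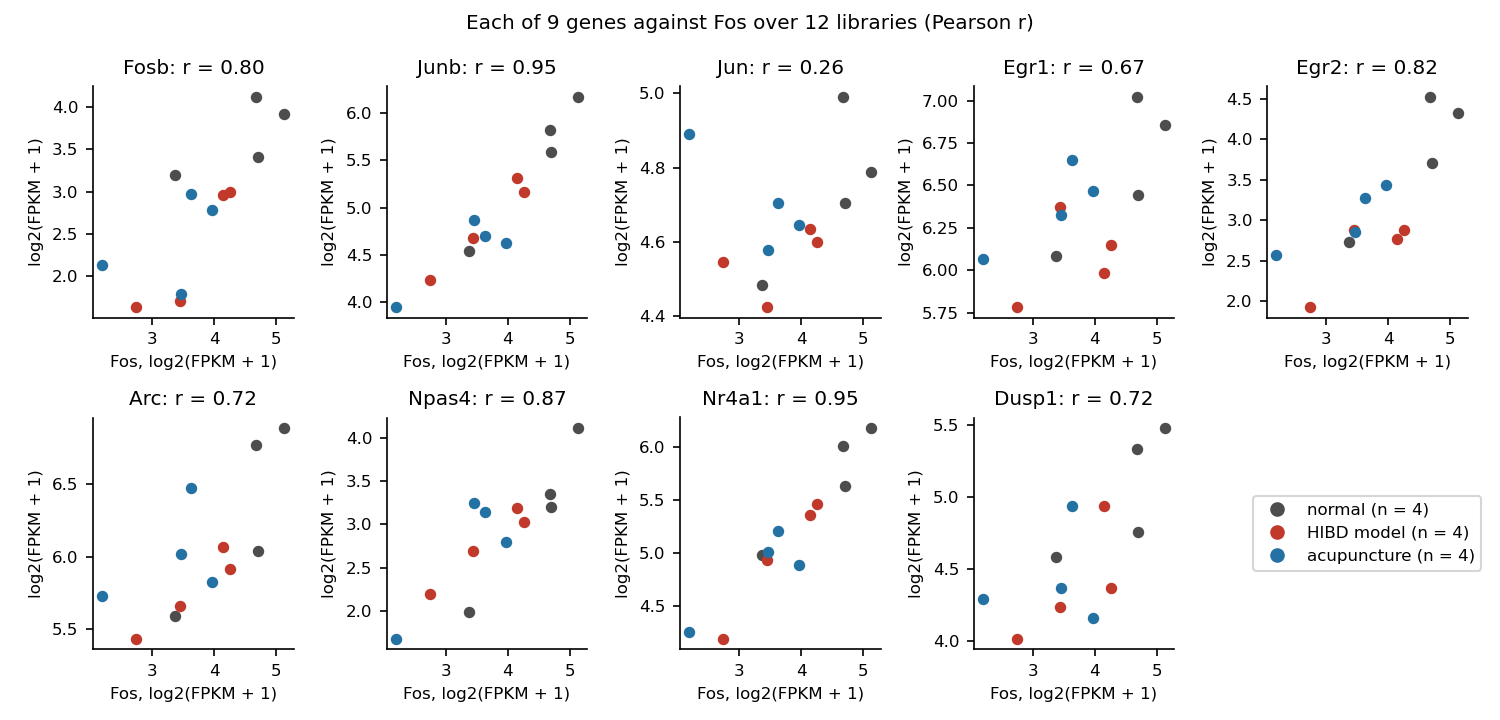
Level of each of 9 genes against Fos, both as log2(FPKM + 1), with 1 point per library coloured by group and Pearson r in each panel title. Points of all 3 groups follow 1 line for Junb and Nr4a1 (r = 0.95 each). The Jun panel has the lowest r of the 9 (0.26), which was 0.72 without acupuncture library 55. Each panel has its own vertical scale.

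Of the 2 measures of the libraries, 1 moved with Fos and the other did not pass. The first was the level of ENSRNOG00000009577, chosen as the most library-variable gene in earlier work. ENSRNOG00000009577 had r = 0.77 with Fos (permutation p = 0.00359, adjusted 0.00658) and rho = 0.74 (permutation p = 0.00786, adjusted 0.0124), and r = 0.66 on deviations from group means. It stood at 9.83 to 24.5 FPKM in the normal libraries, at 14.7 and 13.5 FPKM in HIBD model libraries 2 and 18, at 0.684 and 1.67 FPKM in HIBD model libraries 8 and 16, and at 0.364 to 0.716 FPKM in the acupuncture libraries. In FPKM, the HIBD model libraries high in that gene were also those higher in Fos, Fosb, Junb, Jun, Arc, Npas4, Nr4a1 and Dusp1, but not in Egr1 and Egr2. Egr1 was highest of that group in library 16, at 81.8 FPKM. On the CPM scale Jun and Dusp1 lost this order, with library 16 (6.71 and 3.64) above library 18 (6.43 and 3.33). Normal library 8, with the lowest level of the normal group, was the normal library lowest in all 10 genes. Normal library 13 had the highest level, 24.5 FPKM, whereas normal library 10 or 11 was the highest in FPKM for each of the 10 genes. The part of ENSRNOG00000009577 in the results above was not tested. The share of estimated counts in loci named only by the assembler, 0.795% to 2.35% of a library, had r = -0.19 with Fos (permutation p = 0.554, adjusted 0.554) and rho = -0.18 (permutation p = 0.571, adjusted 0.571). Outside the list, the Ensembl genes with the highest r with Fos were ENSRNOG00000019544 (r = 0.93, rank 3) and ENSRNOG00000026435 (r = 0.93, rank 4), with levels of 2.15 to 4.22 and 1.25 to 2.41 FPKM over the 12 libraries, and so a much narrower range than Fos.

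The gene sums rested on 23 transcript rows, 13 named by Ensembl and 10 by the assembler. Fos, Junb, Egr1, Egr2, Npas4 and Dusp1 each had 1 row. For Fosb, ENSRNOT00000072149 gave 75.6% of the FPKM sum and an assembler-named row 18.0%, while ENSRNOT00000091687 was listed at 0 in 10 of the 12 libraries and gave 20.5% in normal library 11 and 30.1% in HIBD model library 18. Arc was shared by ENSRNOT00000076998 (55.9%) and ENSRNOT00000067442 (43.3%). The share of the first ranged from 49.2% in HIBD model library 18 to 68.0% in normal library 13, and normal library 11 was next at 64.1%. Nr4a1 had ENSRNOT00000010171 at 86.0% and ENSRNOT00000078663 at 14.0% of its sum.

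The rows of Nr4a1 did not vary alike. ENSRNOT00000010171 averaged 47.6 ± 16.4 FPKM in normal, 27.8 ± 9.96 in HIBD model and 23.0 ± 5.62 in acupuncture libraries (SD, n = 4). ENSRNOT00000078663 averaged 5.97 ± 1.75, 4.66 ± 1.86 and 5.37 ± 1.98 FPKM. Its share of the Nr4a1 sum was 10.4% to 13.2% in normal, 13.0% to 16.5% in HIBD model and 16.2% to 21.4% in acupuncture libraries, so the acupuncture libraries lay above all normal libraries and overlapped the HIBD model libraries. The pattern was picked out after these values were seen, and no test is given. How often transcript shares of other genes separate these groups was not counted. For gene levels on the CPM scale, 9% of all genes tested had all 4 acupuncture libraries above all normal ones. How reads shared by both transcripts were divided was not given in the sources used here.

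**Figure D5:**
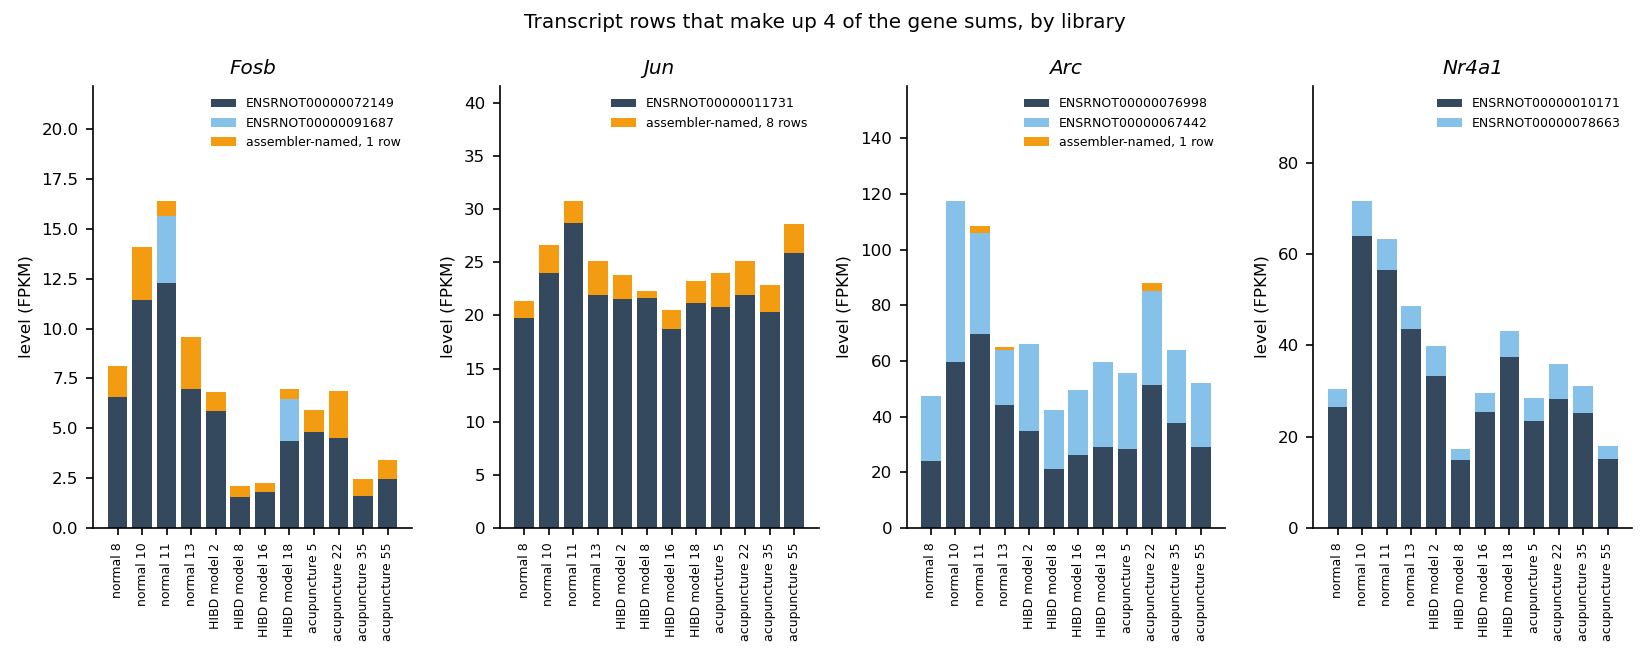
Level in FPKM (vertical axis, stacked bars from 0) of the transcript rows that make up Fosb, Jun, Arc and Nr4a1 in each library (horizontal axis), coloured by row. ENSRNOT00000091687 of Fosb appears in 2 libraries only, the assembler-named rows are a small part of Jun in FPKM (7.5% to 11.8% by group), and the share of ENSRNOT00000078663 in Nr4a1 is higher in the acupuncture bars than in the normal bars.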

How the data were processed

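The members and lists were chosen with earlier results of these data known. Per the labels' protocols, Trizol RNA from frozen prefrontal cortex was made into libraries with a NEBNext Ultra kit. HTSeq 0.6.0 and build Rnor_6.0 are named, per the submitters' processing notes, without saying what each was used for. Aligner, assembler and quantifier were not given in the sources used here. Deposited by the authors were estimated counts for 78025 transcript rows, whole numbers that equal the deposited FPKM of the same row times a row and a library factor (median deviation 0.00088% over 12003 rows above 2000 in every library). The count table names transcripts and the FPKM files name genes, so the 2 were joined by row order, and that product was the check of the join. The authors' files do not name the FPKM unit, which was read from the values.

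Rows were summed per gene and fitted with edgeR 4.0.16 (glmQLFit, TMM, filterByExpr) in R 4.3.3, with all 12 libraries and no covariate. The 95% intervals use the quasi-likelihood degrees of freedom. Alternatives were DESeq2 1.42.0, limma-voom and limma-trend (limma 3.58.1), RLE, other filters, 2 groups only, division by 70, Ensembl genes or transcripts only, and each library left out. Correlations used a pseudocount of 1. The fits were also run on simulated data as a check of the calculation. Those data had 1 common spread for all genes and no shifts shared within a library, and no result above rests on them. Named genes were the 10 members and the 2 Ensembl genes nearest to Fos by r. The lists of other activity genes and of cell type markers could not be used: the reference table (GRCr8) holds 0 Ensembl identifiers for the 32883 Ensembl genes of the files.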

Additional observations from a re-analysis of the deposited data

Results flagged for a closer look

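Egr2 in HIBD model library 8 stood at 2.81 FPKM, far from the 5.85 to 6.36 FPKM of the other 3 HIBD model libraries. Its gap to the nearest of them was 0.856 of the range of the group, above Dixon's 95% critical value for 4 samples. It was the only 1 of 30 gene and group combinations examined in this way, and chance flags about 1 in 20. The ratio was taken on FPKM only. On the CPM scale Egr2 stood at 0.911 in HIBD model library 8 and at 1.60, 2.11 and 1.76 in HIBD model libraries 2, 16 and 18, a more even spread. In FPKM, HIBD model library 8 was among the 3 lowest of 12 for all 10 genes.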

How the results depend on the processing

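The number of the 10 genes past the threshold was 0 in each comparison in edgeR, and DESeq2 gave 2 for HIBD model against normal, 1 for acupuncture against normal and 3 for any difference among the 3 groups. It was 0 in all other alternatives and with any single library left out. The smallest adjusted p among the 10 ranged over all settings from 0.0178 to 0.266 for HIBD model against normal and from 0.0477 to 0.268 for acupuncture against normal. Over all genes, the number called between HIBD model and normal was 27 in edgeR and ranged from 0 to 3753, and that between acupuncture and normal was 23 and ranged from 0 to 4324. Without normal replicate 10 alone these counts were 3032 and 3094, and without HIBD model replicate 2 they were 126 and 90. In HIBD model against normal, all 10 genes kept their direction in every alternative run, though Jun had only -0.0072 with Ensembl transcripts only. In the other comparisons some small values turned. For acupuncture against HIBD model, Fosb was -0.12 with Ensembl transcripts only, and Npas4 was -0.11 with limma-voom, -0.060 on log2(FPKM + 1) and -0.091 on log2(FPKM + 0.1). With single libraries left out, Fos ranged from -0.53 to 0.032, Fosb from -0.13 to 0.39, Npas4 from -0.11 to 0.37, Nr4a1 from -0.29 to 0.079 and Dusp1 from -0.12 to 0.27. For acupuncture against normal, Jun was -0.037 on log2(FPKM + 1) and -0.039 on log2(FPKM + 0.1), where the median of all genes was -0.10, and Egr1 ranged from -0.26 to 0.037 and Npas4 from -0.73 to 0.0088 with single libraries left out. The cause of these turns was not tested. Of the 9 genes, 8 correlated with Fos past the threshold, and 5 to 9 with single libraries left out, 5 without normal replicate 10. On log2 CPM 7 did, but not Egr1 (r = 0.56, permutation p adjusted 0.0721) or Jun. How many of all genes passed in these alternatives was not counted. The share of assembled loci had r = 0.40 with Fos on deviations from group means, in place of -0.19. No paired analysis was possible because the groups share 1 replicate number at most (8, in normal and HIBD model). With 4 libraries a group, the unadjusted 95% intervals of the log2 fold change were wide. For HIBD model against normal they ran from -1.90 to 0.26 for Fos and from -2.30 to -0.44 for Egr2.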
